A study of Homo sapiens with 4 samples.

Results

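FAIRE-seq isolates DNA that is poorly crosslinked to nucleosomes and so maps accessible regulatory DNA. It was applied to H295R/TR SF-1 cells, which derive from the adrenocortical tumour line H295R and in which doxycycline induces SF-1 (NR5A1), with 1 library at basal SF-1 dosage and 1 after 3 days of doxycycline. The sites described here are distal sites that were called in both conditions and stood much later in the list of the SF-1 overexpression condition than in the basal list. They numbered 1013 pairs, or 24.3% of the 4175 distal pairs, out of lists of 34423 basal and 31219 overexpression sites.

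Both groups are the same subclone carrying the same inducible SF-1 gene, so each condition stands for 1 engineered tumour cell line and not for adrenal tissue. No library of cells given doxycycline without the inducible gene was analysed here, and an effect of the drug and of SF-1 dosage cannot be told apart. Sequencing depth is unknown, because the lists hold positions and no read counts. With 1 library per condition, no difference between the conditions has a replicate check and no p-value was computed. Intervals below are 95% intervals that cover counting error over sites, which are not replicates. The lists hold no expression values, so the identity of the cells was not checked against marker genes.

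The members were chosen by their positions in the lists. The place of a site is its peak number as a percentage of all sites in its list, so that 0 is the top and 100 the bottom, and the quantity that ordered the deposited lists is not stated in the sources used here. A pair was formed where 1 basal site overlapped 1 overexpression site by at least 1 bp and neither overlapped any other site. A pair was distal when the basal centre lay over 10 kb from every annotated transcript start and within 200 kb of a start of a protein-coding gene. A falling pair had an overexpression place at least 25 points later than its basal place. The rule also left out pairs with both places in the first 20 percent. A fall of 25 points cannot have that, so none (0) was removed, by construction. Comparison was made with 1317 stable distal pairs, which moved by under 10 points, and with 477 rising pairs (11.4% of the distal pairs), which gained 25 points or more.

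Enhancers are distal elements at which transcription factors displace nucleosomes and act on promoters over long distances. SF-1 is a nuclear receptor that binds DNA as a monomer and governs steroidogenic genes and adrenal development. CTCF binds at boundaries of chromatin loops, and AP-1, made of FOS and JUN proteins, binds at enhancers in many cell types. Motifs of all of these proteins can occur in accessible DNA, and a motif match is a run of letters and not evidence that the factor was bound.

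The sequences below show falling pairs with some of the largest falls among those holding each of the SF-1, CTCF and AP-1 motifs. Each is 300 bases of hg19 around the centre of the basal site, 5′ to 3′ on the plus strand, and capitals mark every match to any of these motifs on either strand. The SF-1 motif was searched as CAAGGTCA or CAAGGCCA. The AP-1 motif was TGACTCA or TGAGTCA, and the CTCF consensus was allowed 1 mismatch.

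The window with an SF-1 motif lay at chr12:67568001-67568300, in intergenic DNA whose nearest coding start was that of CAND1, a regulator of ubiquitin ligases.
CAND1: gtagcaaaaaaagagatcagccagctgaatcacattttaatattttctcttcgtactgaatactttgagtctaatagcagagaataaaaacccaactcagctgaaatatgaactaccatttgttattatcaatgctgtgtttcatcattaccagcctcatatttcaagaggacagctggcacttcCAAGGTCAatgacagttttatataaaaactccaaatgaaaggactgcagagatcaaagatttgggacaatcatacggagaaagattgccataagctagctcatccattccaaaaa

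The windows with a CTCF motif lay at chr17:27696826-27697125, in an exon of a non-coding gene near TAOK1, a protein kinase gene, and at chr12:47415101-47415400, in intergenic DNA near PCED1B. The second of these also held an AP-1 motif.
TAOK1: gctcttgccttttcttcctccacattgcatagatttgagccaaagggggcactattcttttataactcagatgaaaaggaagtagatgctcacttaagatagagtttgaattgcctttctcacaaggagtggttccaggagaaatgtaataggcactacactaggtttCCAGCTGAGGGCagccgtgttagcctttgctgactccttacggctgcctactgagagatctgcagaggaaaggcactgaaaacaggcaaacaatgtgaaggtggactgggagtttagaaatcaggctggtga
PCED1B: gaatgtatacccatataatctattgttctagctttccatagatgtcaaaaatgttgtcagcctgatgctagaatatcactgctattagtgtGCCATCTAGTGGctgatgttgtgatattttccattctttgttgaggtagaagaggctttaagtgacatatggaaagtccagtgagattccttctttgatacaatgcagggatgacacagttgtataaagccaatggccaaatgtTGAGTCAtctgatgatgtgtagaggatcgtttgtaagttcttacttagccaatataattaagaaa

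The windows chosen for an AP-1 motif lay at chr5:19315101-19315400, intergenic and nearest to CDH18, a cadherin gene, and at chr3:171887151-171887450, in an intron of FNDC3B.
CDH18: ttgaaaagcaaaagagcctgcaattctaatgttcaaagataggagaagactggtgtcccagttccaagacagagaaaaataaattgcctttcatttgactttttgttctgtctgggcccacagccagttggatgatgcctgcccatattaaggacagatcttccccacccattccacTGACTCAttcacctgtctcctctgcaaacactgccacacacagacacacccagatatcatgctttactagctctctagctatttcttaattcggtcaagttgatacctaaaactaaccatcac
FNDC3B: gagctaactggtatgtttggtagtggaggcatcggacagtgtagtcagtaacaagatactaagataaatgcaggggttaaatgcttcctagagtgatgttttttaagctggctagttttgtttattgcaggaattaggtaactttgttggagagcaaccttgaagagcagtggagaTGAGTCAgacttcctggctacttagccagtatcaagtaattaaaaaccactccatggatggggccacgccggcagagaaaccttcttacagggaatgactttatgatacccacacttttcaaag

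A further pair of windows is shown because THSD4 and ITGA1 stand out in the gene results, and they were chosen after their values were seen. The THSD4 window, at chr15:71682476-71682775 in an intron, held none (0) of the 3 motifs. The ITGA1 window, at chr5:52211076-52211375 with its centre in an intron, held 1 SF-1 match on the minus strand.
THSD4: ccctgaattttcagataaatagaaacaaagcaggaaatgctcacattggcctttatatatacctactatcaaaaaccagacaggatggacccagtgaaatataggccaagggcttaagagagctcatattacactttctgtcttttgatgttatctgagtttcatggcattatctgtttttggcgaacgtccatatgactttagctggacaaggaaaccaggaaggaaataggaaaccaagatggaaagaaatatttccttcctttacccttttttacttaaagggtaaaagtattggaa
ITGA1: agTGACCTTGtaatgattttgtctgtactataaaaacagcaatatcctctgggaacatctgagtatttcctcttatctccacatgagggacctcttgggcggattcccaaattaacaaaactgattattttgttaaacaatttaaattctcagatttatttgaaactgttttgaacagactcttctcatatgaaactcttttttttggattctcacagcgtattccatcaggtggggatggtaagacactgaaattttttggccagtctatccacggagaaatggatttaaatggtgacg

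Falling pairs moved from the upper part of the basal list to the lower part of the overexpression list. Their basal place ran from 0.805 to 72.2 with a median of 26.4, and their overexpression place ran from 28.3 to 99.99 with a median of 72.8. The fall had a median of 39.9 points, with quartiles of 31.8 and 50.8 and a highest value of 88.7. These values describe the rule that chose the pairs. In the basal list 355 of the 1013 (35.04%) stood in the first 20 percent, and in the overexpression list 369 (36.4%) stood in the last 20 percent.

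**Figure D1:**
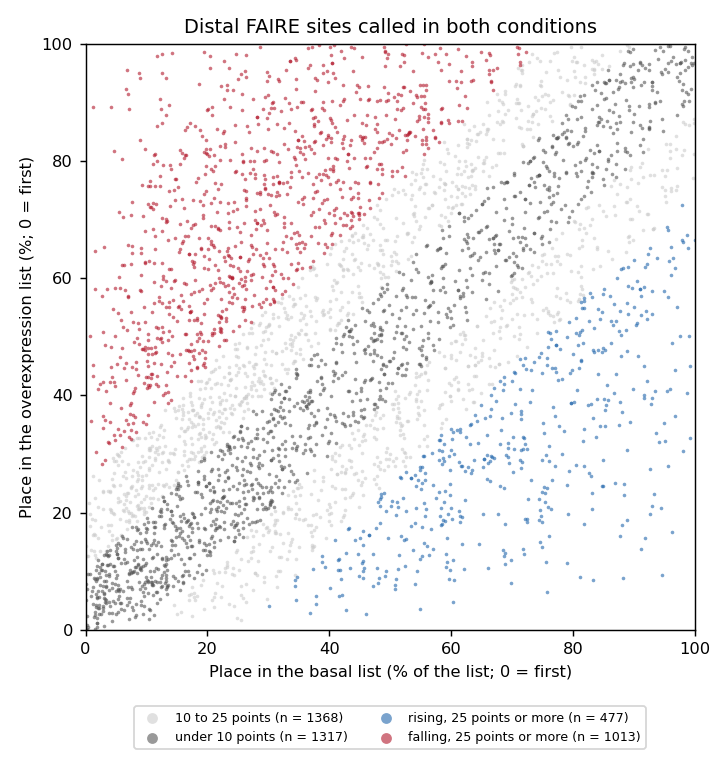
Basal place (x axis, percent of the list) and overexpression place (y axis, percent) of each distal pair, 1 point per pair. The 1013 falling pairs lie at the upper left and the 477 rising pairs at the lower right, and falling pairs reach basal places up to 72.2.

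There were 2.12 falling pairs for each rising pair. Over all distal pairs the median change was 6.62 points, so the distal pairs as a whole stood later in the overexpression list. When places were counted among the distal pairs alone, 802 pairs fell and 792 rose. That ranking sets the mean change of the distal pairs to 0 by construction, so the near balance of these numbers is no finding.

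The sites also became narrower, which is a description of the same contrast. The median width was 299 bp at basal SF-1 and 199 bp on overexpression, and 874 of the 1013 pairs (86.3%) were narrower in the overexpression list. Another 101 kept the same width and 38 were wider. Among the 1317 stable pairs 461 were narrower, and among the 477 rising pairs 27.

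The pair with the largest fall lay in an intron of SLC35F4, a member of a solute carrier family, at chr14:58213751-58214099. It stood at 6.80 in the basal list and at 95.5 after SF-1 overexpression. Next came a site in an intron of LRRC49, at chr15:71287701-71288399, which went from 1.23 to 89.2 while its width went from 699 to 199 bp. Both were near the top of the basal list and near the bottom of the other.

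Sites nearest to GRIP1, a scaffold protein of glutamate receptors, and to SYN3, a synapsin, went from 8.74 to 95.01 and from 12.6 to 95.01. The site in a UTR exon of PAQR5, a membrane progestin receptor, went from 8.88 to 94.2. Sites nearest to ADAMTS19, TBC1D30, CAND1, ADGRA3 and TOM1L2 had falls between 81.7 and 85.6 points. Among these, the pairs near CAND1 and SYN3 held an SF-1 motif. At the limit of the rule, pairs near SUCLG1, HDAC4 and PLN fell by 25.04, 25.02 and 25.003 points and were included. Pairs near BCHE, ARHGAP42 and RHOU, with 24.9998, 24.99 and 24.98 points, were not.

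Base composition was measured on the reference genome and was not used to choose pairs. Falling sites were poorer in G and C than the others. Their mean GC content was 41.9% (SD 6.81, n = 1013), against 44.8% (SD 8.31, n = 1317) for stable pairs and 47.3% (SD 8.90, n = 477) for rising pairs. The difference from stable pairs was -2.88 percentage points (-3.50 to -2.27) and from rising pairs -5.41 (-6.31 to -4.51). These values are over whole basal sites, whose widths differed between the classes. In equal windows of 300 bp they were -2.83 (-3.44 to -2.22) and -4.66 (-5.53 to -3.80). Falling and rising pairs also stood apart in basal place by the rule, and their GC contrast was not matched on place. The median number of CpG dinucleotides in 300 bp was 2 in falling and 3 in stable pairs.

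The share of distal pairs that fell dropped along the range of GC content. Below 35% GC, 31.8% of 377 pairs fell (27.2 to 36.8), and at 60% GC or more 9.41% of 202 pairs did (5.76 to 14.3). Rising pairs ran the other way, from 6.90% (4.55 to 9.94) to 20.3% (15.0 to 26.5). GC content therefore moved with the change in place in both directions. The difference was also present in the surrounding DNA, at -1.07 points (-1.45 to -0.693) over 10 kb and -0.971 (-1.32 to -0.624) over 100 kb against stable pairs. Its part in the results below was addressed by comparing pairs of like GC content, and a technical origin in the 2 libraries was not tested.

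**Figure D2:**
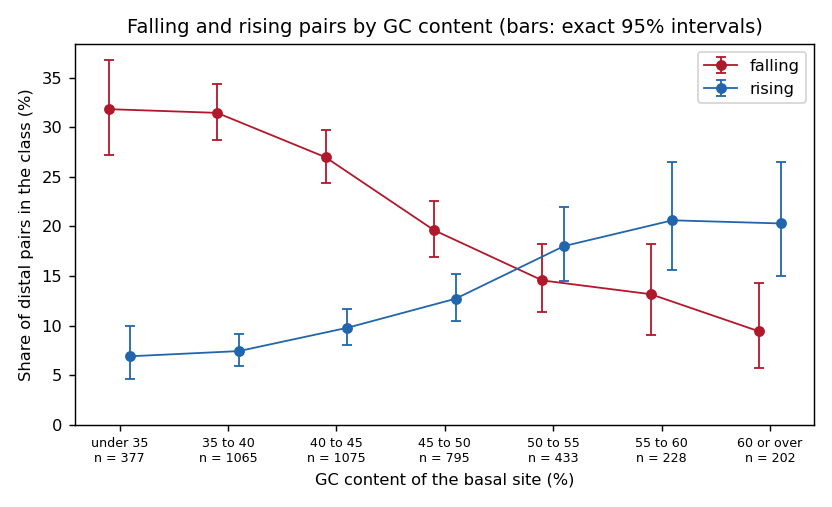
Share of distal pairs that fell or rose (y axis, percent) by GC content of the basal site (x axis, percent), with exact 95% intervals. The falling share goes from 31.8% in the lowest bin to 9.41% in the highest and the rising share from 6.90% to 20.3%.

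To ask whether the falling sites held other motifs than the stable ones, their 300 bp windows were searched. At least 1 of the SF-1, CTCF and AP-1 motifs was present in 513 of the 1013 falling pairs (50.6%, 47.5 to 53.8) and in 661 of the 1317 stable pairs (50.2%, 47.5 to 52.9). The SF-1 motif was in 187 falling windows (18.5%, 16.1 to 21.0), in 20.1% of stable and in 21.2% of rising windows. In 300 bp windows beginning 1000 bp beyond the falling sites it was in 3.11%, so the motif was concentrated at the sites themselves. Matched on GC content, falling minus stable was -1.38 percentage points (-4.69 to 1.92). No difference in the SF-1 motif was detectable, and the interval leaves room for a deficit of up to 4.69 points.

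The CTCF motif was more frequent in falling than in rising pairs. It was present in 266 falling windows (26.3%, 23.6 to 29.1), in 26.6% of stable windows and in 17.6% of rising windows (14.3 to 21.3), against 25.5% of all distal pairs and 1.43% of the falling flanks. Matched on GC content, falling minus rising was 11.6 points (6.997 to 16.2) and falling minus stable 1.22 (-2.43 to 4.87). The rising pairs were thus the class with fewer CTCF motifs, and the falling pairs were near the share of all distal pairs. By the rule these classes also stood apart in basal place, with medians of 26.4 for falling and 71.8 for rising pairs. Their contrast was not matched on place, and the part of place in it was not tested. Falling minus stable was 3.51 (-0.348 to 7.37) with GC content and basal place matched. It was -2.25 (-6.24 to 1.74) with stable pairs in the first 20 percent of both lists left out.

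AP-1 motifs were in 109 falling windows (10.8%, 8.92 to 12.8), in 10.3% of stable and in 10.1% of rising windows, with 5.63% in the falling flanks. The matched difference from stable pairs was 0.788 points (-1.77 to 3.35). The GATA motif AGATAA was frequent, in 23.6% of falling windows, but nearly as frequent in their flanks at 21.6%. Motifs of the NR4A receptors (AAAGGTCA, which shares all but its first base with an SF-1 motif) and of TEAD factors (TGGAATG) were in 3.65% and 5.43% of falling windows. The cAMP response element TGACGTCA was in 8 falling windows and the palindromic NFI motif in 1.

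Across the 9 searches, including a shuffled version of the SF-1 motif as a control (GACATGCA or GACACGCA), 1 matched interval between falling and stable pairs left out 0. That was the control, found in 6 falling and 20 stable windows, with a difference of -0.830 points (-1.64 to -0.0171). Between falling and rising pairs 2 of 9 left out 0, for CTCF and for the cAMP response element, the latter with 8 and 2 windows. These intervals are not corrected for the number of motifs searched.

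**Figure D3:**
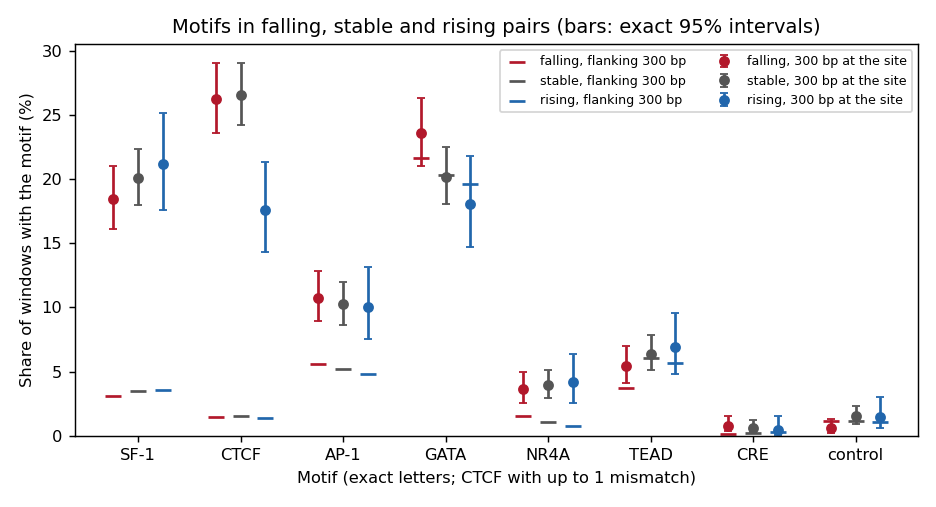
Share of 300 bp windows holding each motif (y axis, percent) for falling, stable and rising pairs (points with exact 95% intervals) and for their flanks (dashes). CTCF in rising pairs, at 17.6%, lies below the 26.3% of falling and the 26.6% of stable pairs, and the SF-1 motif stands between 18.5% and 21.2% in all classes.

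In the genome, falling pairs lay mostly within genes. Of the 1013, 539 (53.2%) had their centre in an intron of a coding gene, 102 in an intron of a non-coding gene and 336 (33.2%) between genes. Only 12 lay in a coding exon and 17 in a UTR exon. The share within any gene was 66.8% (63.8 to 69.7), against 61.1% of stable and 60.2% of rising pairs. That difference from stable pairs was 5.71 points (1.79 to 9.62) before matching and 2.73 (-1.25 to 6.71) once GC content was matched, so it was not distinguishable from 0 at like composition. The median distance to the nearest transcript start was 22060 bp for falling and 21404 bp for stable pairs.

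Falling pairs stood about as close to each other as stable pairs stood to them. Another falling pair lay within 50000 bp of 111 of them (11.0%), and 10.6% of stable pairs had a falling pair that near. Within 1000000 bp the shares were 66.1% and 62.1%. By chromosome, the falling share was highest on chromosome 18, with 27 of 78 distal pairs (34.6%, 24.2 to 46.2, where GC content alone predicted 24.5%). It was lowest on chromosome 21, with 5 of 40 (12.5%, 4.19 to 26.8, predicted 22.6%). Both intervals held the predicted share, and so did those of chromosomes 16 and 19, where 14.9% and 13.6% of pairs fell.

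Sites called in only 1 condition near the falling pairs were also fewer in the overexpression list. Within 10000 bp of the falling pairs there were 225 basal-only and 118 overexpression-only sites, a ratio of overexpression to basal of 0.524. Around stable pairs the ratio was 0.755 and around rising pairs 1.01. Because these sites come from the same 2 lists that chose the pairs, this is a description.

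Genes whose expression changes with SF-1 dosage in this cell line were listed in the study from expression arrays, which are other samples, and each pair was given to the gene with the nearest protein-coding start. Pairs nearest to genes with lower expression on SF-1 overexpression fell more often than distal pairs at large. There were 95 such pairs at 37 genes, and 43 of them (45.3%, 35.02 to 55.8), at 25 genes, fell, against 24.3% of all distal pairs. Another 24 were stable and 3 (3.16%) rose, against 11.4% of all. Their median change was 19.8 points, against 6.62 over all distal pairs. From the GC content of these pairs 27.2% would be expected to fall, and from GC content and basal place together 31.9%. The interval of the falling share counts pairs of the same gene as independent. Intervals over the 12 gene lists are not corrected for their number.

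Pairs of 1 gene share a locus, so the count was repeated with 1 pair per gene, the earliest in the basal list. Then 19 of 37 (51.4%, 34.4 to 68.1) fell, against 25.5% over all genes. This choice used the basal place, which is part of the rule, and the 25.5% was not matched on place. The list also offered more pairs per gene to choose from, with 95 pairs at 37 genes against 4175 at 2769. The count per gene is therefore a description. Without THSD4, which had the most pairs, 37 of 80 fell (46.2%). With places counted among distal pairs alone, 39 of 95 did (41.1%), against 19.2% of all. The nearest gene is not known to be the gene on which a distal site acts. Given any coding start within 200 kb in place of the nearest, 64 of 163 pairs of this list fell (39.3%). When pairs were given to genes within 10 kb of the gene body, 31 of 78 did (39.7%). Neither share was set against one expected from GC content and basal place.

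The other array lists did not stand apart in this way. Of pairs nearest to genes higher on overexpression, 12 of 55 fell (21.8%, 11.8 to 35.01). Another 9 rose (16.4%, 7.77 to 28.8), an interval that held the 11.4% of all distal pairs. Of those nearest to genes lower on knockdown of SF-1, 22 of 111 fell (19.8%, 12.9 to 28.5), and of those at genes higher on knockdown 4 of 19 (21.1%, 6.05 to 45.6). The intervals of all of these falling shares held the background of 24.3%.

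**Figure D4:**
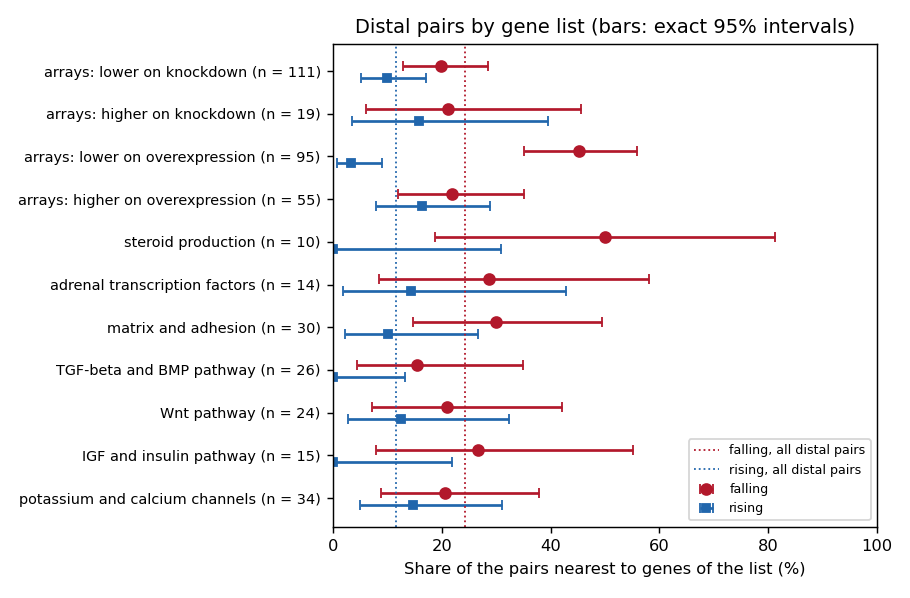
Share of distal pairs that fell (circles) or rose (squares), in percent on the x axis, for each gene list with at least 10 pairs, with exact 95% intervals and dotted lines at the share over all distal pairs. The list of genes lower on SF-1 overexpression, at 45.3%, is the one whose falling interval lies above the line at 24.3%.

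THSD4, which encodes a thrombospondin-repeat protein of the extracellular matrix, was the gene with the most falling pairs. It is a gene of 686 kb at chr15:71389291-72075722 on the plus strand, and its expression is on the list of those lower on overexpression. Of its 15 distal pairs 6 fell, 5 were stable and 4 lay between, and all were inside the gene. The falling pairs began 290 kb from the gene start, where the pairs at 290, 293, 315, 344 and 349 kb formed an unbroken run. The pair at 293 kb went from 4.18 to 89.2 and the pair at 349 kb from 22.8 to 90.6. In the same intronic region the pair at 368 kb stayed near the top of both lists, at 1.48 and 2.48. Neighbouring sites of this gene therefore moved unequally.

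P3H2, a prolyl hydroxylase that modifies collagen, had 4 falling pairs of 7. Its pairs lay on both sides of the gene start, and 2 of the falling pairs were upstream of it, at 60.7 and 79.6 kb, going from 51.9 to 88.7 and from 58.3 to 95.5. RBMS3, an RNA-binding protein gene, had 4 of 9. Its largest fall, from 13.2 to 69.7, was 327 kb into the gene, and another pair beyond its 3′ end went from 43.5 to 99.5 and held both an SF-1 and a CTCF motif. No pair of either gene rose.

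ITGA1, the alpha chain of a collagen-binding integrin, had 3 falling pairs of 6. The pair in its intron at chr5:52210851-52211599 went from 20.7 to 89.2 and its width from 749 to 149 bp. A pair 189 kb upstream of the gene start, at chr5:51894801-51895599, went from 30.9 to 89.1 and from 799 to 199 bp. The pair 49.9 kb upstream, at 19.9 and 12.8, did not fall.

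**Figure D5:**
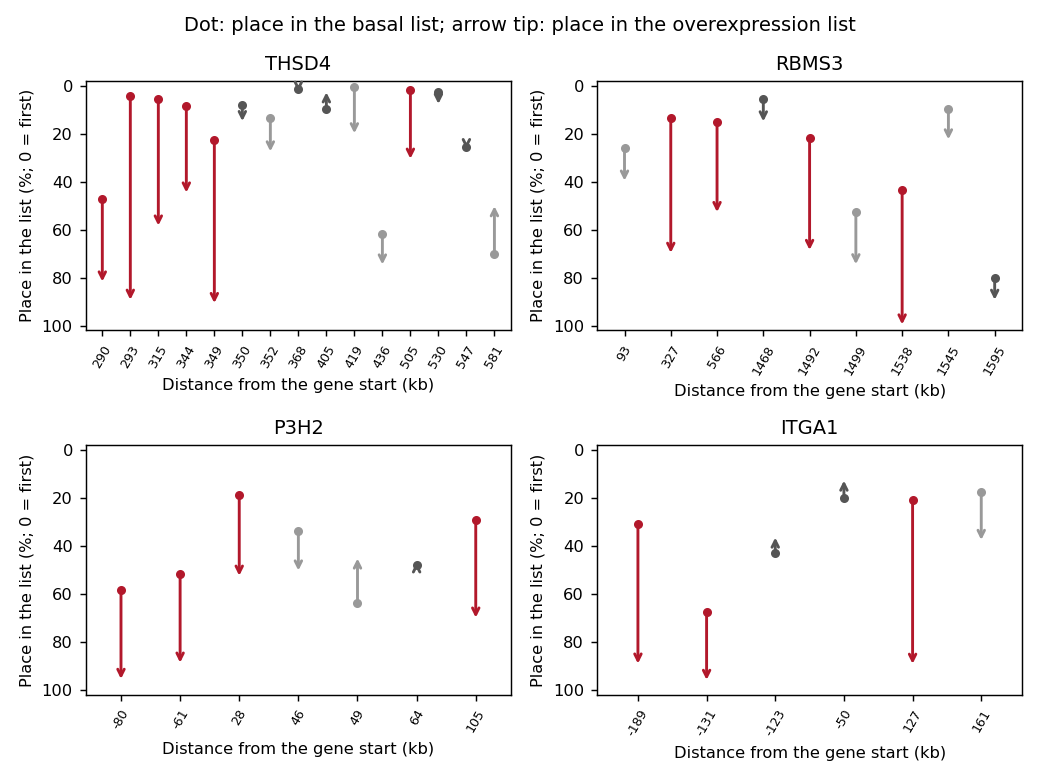
Place in the list (y axis, percent, 0 at the top) of every distal pair nearest to THSD4, RBMS3, P3H2 and ITGA1, ordered by signed distance from the gene start (x axis, kb, not to scale). Dots mark the basal place and arrow tips the overexpression place. Red arrows are falling pairs, which make up 6 of 15, 4 of 9, 4 of 7 and 3 of 6, and the other pairs moved less than 25 points.

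At other genes of this list, both pairs of OSBPL10, an oxysterol-binding protein homologue, fell, from 2.91 to 50.8 and from 21.9 to 60.1. Of 3 pairs at COL15A1, a basement membrane collagen, 2 fell, and the third moved by -17.9 points. LAMA3, a laminin chain, and COL4A3, a chain of type IV collagen, had 1 falling pair each, with 25.3 and 36.5 points. The other COL4A3 pair moved by 12.7 points and the pair at COL4A4, another chain of type IV collagen, by 18.5, both short of the limit.

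KCNJ8, the pore of an ATP-sensitive potassium channel, had 1 pair, 12.9 kb upstream at chr12:21941301-21941549, which went from 12.6 to 86.4. CACNA1C, an L-type calcium channel gene, had an intronic pair that went from 21.2 to 79.2, while its other pair moved by 16.8 points. PDE4B, a phosphodiesterase that degrades cAMP, went from 7.43 to 70.7. TSPAN12, a tetraspanin, had a pair 40.4 kb upstream that went from 1.62 to 58.2. PDK4, a kinase that restrains pyruvate oxidation, had 2 falling pairs of 3, and 1 of them narrowed from 899 to 199 bp. The 3 rising pairs of the list were nearest to CADPS, SERINC5 and SLC44A1.

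DLG2 and CLNK had many falls and are on none of the lists. DLG2, a synaptic scaffold, had 5 falling pairs of 6, with falls from 37.2 to 56.5 points. At CLNK, an adaptor of immune receptor signalling, 4 of 7 fell, 2 were stable and 1 rose. Most genes had few falls, as 753 of the 870 genes with a falling pair had 1.

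The lists of pathways in the adrenal cortex gave small counts, and they were not separate from the array lists. Falling pairs at CYP19A1, ITGA1, LAMA3, CACNA1C and IGFBP7 were also counted among genes lower on overexpression. Steroid production, the defining function of these cells, had 10 distal pairs, of which 5 fell (interval 18.7 to 81.3%) and none (0) rose (interval up to 30.8%). Over all distal pairs 24.3% fell and 11.4% rose, and both intervals held these shares. These pairs were rich in G and C (mean 50.7%). Their GC content predicted a falling share of 17.8%, and GC content with basal place 15.3%, both below the interval. With 10 pairs at 6 genes the share is a description. Both pairs nearest to CYP11B2, the aldosterone synthase, fell, and they lie upstream at chr8:144021401-144021699 and chr8:144036601-144036899. They went from 21.3 to 76.3 and from 27.9 to 71.5. A pair in an intron of SCARB1, the HDL receptor, went from 22.8 to 49.5, and the other SCARB1 pair moved by 1.27 points. At CYP19A1, the aromatase, 1 pair went from 37.9 to 77.2 and the other moved by 0.599 points. With any coding start within 200 kb in place of the nearest, 6 of 21 pairs of this list fell (28.6%).

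Among adrenal transcription factors, 4 of 14 pairs fell (28.6%, 8.39 to 58.1) and 2 rose (14.3%), near the 24.3% and 11.4% of all distal pairs. The values of single pairs below are therefore a description. A pair nearest to NR5A1, which encodes SF-1, lay in an intron of its neighbour NR6A1 at chr9:127299051-127299349, held a CTCF motif and went from 34.5 to 97.2. Another NR5A1 pair changed by -34.97 points, a rise, and the third moved by 10.9, so the pairs of this gene moved in both directions. Single pairs fell at GATA6, a developmental regulator of the adrenal, by 43.6 points, at ESRRG by 36.5 and at NR3C1, the glucocorticoid receptor, by 30.2. The other ESRRG pair moved by -0.622 points.

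In the remaining pathways the intervals of the falling shares held the background of 24.3%. Matrix and adhesion genes had 9 of 30 (interval 14.7 to 49.4%), including COL1A2, from 37.9 to 93.8, and NCAM1, from 44.6 to 93.0, but 3 of 16 when pairs were given to genes within 10 kb of the gene body. Wnt genes had 5 of 24 (20.8%), at WNT4, LEF1, TCF7L2, SFRP1 and DKK2. IGF and insulin genes had 4 of 15 (26.7%), with the largest fall at IRS2, an insulin receptor substrate, from 19.8 to 83.6. Potassium and calcium channels had 7 of 34 (20.6%), among them CACNA1D and CACNA1H, calcium channels of aldosterone-producing cells, with falls of 56.4 and 41.2 points. TGF-beta and BMP genes had 4 of 26 (15.4%, 4.36 to 34.9), at BMP2, BMP4 and SMURF2, but 0 of 14 when pairs were given to genes within 10 kb of the gene body, where the difference from the background was -24.3 points (-24.3 to -1.10). The AP-1 family had 2 pairs, of which none (0) fell, and the pair at FOS moved by 24.1 points, just under the limit. Several pathway genes named for a fall also had stable pairs. These were 3 of 5 pairs at IRS2 and at LEF1, 1 of 3 at NCAM1, and 1 of 2 at COL1A2, CACNA1D and BMP4. DKK2 had 1 stable and 1 rising pair of 4.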

How the data were processed

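FAIRE DNA of H295R/TR SF-1 cells was sequenced by the authors, with 1 library per condition, and samples were grouped by the labels. Peaks of each library had been listed separately. Per the labels, reads were on hg19 and CASAVA 1.8 was among the tools. The aligner, peak caller and threshold for FAIRE are not given in the sources used here. The deposited score was 1000 for every peak and was not informative, and the deposited peak number (also a score without unit) ran in file order, so places in the list were used. No file of the 2 input DNA libraries was used here.

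Transcript starts and genes were from GENCODE release 44 mapped to GRCh37, the assembly behind hg19. Place was 100 × peak number / number of peaks. Motifs were searched on both strands of 300 bp around the basal centre. Shares have exact (Clopper-Pearson) 95% intervals. Differences were standardised to the GC content of the falling pairs in strata of 2.5 percentage points, with 95% intervals from binomial variances, in Python 3.11.15 (numpy 2.4.6, scipy 1.17.1, pandas 2.3.3, pyfaidx 0.9.0.4). The search and the standardised difference were tested on simulated data. The array gene lists are names in the study's supplement, matched to 84 genes for those lower on overexpression, and 8 pathway lists were written for this work. Members, lists and comparisons were chosen with earlier results of these data known. Named pairs were the 12 largest falls, the 16 largest at listed genes, the 2 largest with each of the SF-1, CTCF and AP-1 motifs outside chromosome 8, those at the 5 genes with most falls, and 3 on each side of the limit, and other listed genes were named after their values were seen. Some pairs that these rules name are not reported here. Alternatives changed the fall, overlap, distance, window, matching and gene assignment.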

Additional observations from a re-analysis of the deposited data

How the results depend on the processing

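Of 157 values recomputed for 25 results under other settings, 155 moved by less than their counting error or by less than 1.5 times and 2 moved further. The sign of 17 differences changed, all of them for motifs or gene lists whose interval already held 0. With a distance of over 20 kb from starts, 561 pairs fell in place of 1013, because fewer pairs were tested (2245). With gene bodies within 10 kb, 0 of 14 pairs of the TGF-beta and BMP list fell, against 4 of 26. Falls of 20 or 30 points or more gave 1244 and 834 pairs. Settings added after seeing the data kept the CTCF difference between falling and rising pairs between 8.65 and 12.8 points, but no setting matched these classes on place. Of 81 recomputed motif differences between falling and stable pairs, 4 intervals left out 0, all for the composition control. Depth is unknown and limits all places. No paired analysis was possible because there was 1 library per condition, and no library could be left out. The AP-1 family had no pair within 10 kb of a gene body, so that value was not computed.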
